A study of Mus musculus with 40 samples.

Results

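Mitochondrial ribosomal proteins build the ribosome that works inside mitochondria. Their genes were taken here as the table rows whose symbol is Mrpl or Mrps followed by a number and at most 1 letter. This pattern uses no measured value, but it was chosen with earlier results of these data known. The pattern matched 76 of the 23284 genes counted in the pI-pC and antibody libraries. It matched 0 of the 23107 genes in each of the tamoxifen tables, so the response of these 76 genes to tamoxifen was not analysed here. By the current naming of the complex, 49 of the 76 encode proteins of its large subunit and 26 encode proteins of its small subunit. Of these, 30 large-subunit and 16 small-subunit proteins have a bacterial counterpart, and 19 and 10 are specific to mitochondria. The last member, Mrps36, keeps a ribosomal name but its product is now known as a component of the 2-oxoglutarate dehydrogenase complex.

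The mitochondrial ribosome translates the few messenger RNAs encoded by mitochondrial DNA, whose products are core subunits of the respiratory chain and ATP synthase. Its ribosomal RNAs come from mitochondrial DNA, whereas its proteins are encoded in the nucleus, made in the cytosol and imported. Nuclear respiratory factor 1, the ETS factor GABP, PGC-1 coactivators and Myc are known activators of genes for mitochondrial biogenesis. In mature T cells, mitochondrial translation is known to be needed for growth and division after activation.

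The study profiled RNA from early T-lineage progenitors (ETP) and from the later DN3 thymocytes of C57BL/6 mice. DeltaMxCre mice carried MxCre and floxed Zmiz1 alleles (Zmiz1 f/f), and the control mice are labelled MxCre. Zmiz1 encodes a PIAS-like co-factor of Notch1. Both genotypes received 40 mcg of pI-pC, an interferon inducer that turns on the Mx1 promoter driving Cre, 5 times at 2-day intervals, and cells were sorted at 8 weeks, so the controls carried the transgene and received pI-pC too. Other mice received 10 mg/kg of an antibody (AntiNRR) that binds the negative regulatory region of Notch1 and blocks it, or the isotype control IgG, and were sorted at 24 hours; the labels give no genotype for them beyond the strain. DeltaTamCre (Rosa26CreERT2 with floxed Zmiz1) and TamCre mice, which carry a Cre fused to an oestrogen receptor under a ubiquitous promoter, received 0.2 mg/g tamoxifen and were sorted at 43 to 44 hours. Each pI-pC or antibody group had 3 libraries, and each tamoxifen group had 4. The labels count 3 mice for each pI-pC group and 4 for each tamoxifen group, but give no number for the antibody groups and do not say whether ETP and DN3 libraries came from the same mice. P-values measure only the spread between these libraries.

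The 24 libraries with the 76 genes held 9456818 to 23962395 counts. Zmiz1 averaged 89.7 ± 28.3 CPM, which is the count scaled by library size to a fixed total, in DeltaMxCre ETP and 238 ± 81.0 CPM in MxCre ETP, and 120 ± 8.44 CPM in DeltaMxCre DN3 and 318 ± 31.7 CPM in MxCre DN3 (SD, n = 3 each). Dtx1, a direct Notch target, averaged 3.18 ± 4.67 CPM in AntiNRR ETP and 25.8 ± 1.72 CPM in IgG ETP, and 11.0 ± 5.51 CPM in AntiNRR DN3 and 166 ± 16.6 CPM in IgG DN3. The sort written in the labels for DN3 cells, CD44+ and CD25-, is not the usual CD44- and CD25+ gate; Cd44 stood at 2.47 ± 0.232 CPM in IgG DN3 and 88.5 ± 44.5 CPM in IgG ETP. The stage markers also differed within the deletion experiment: 8 DN3 markers summed to 7173 to 8078 CPM in DeltaMxCre ETP and 3105 to 4221 CPM in MxCre ETP, and 7 ETP markers summed to 342 to 451 CPM in DeltaMxCre ETP and 730 to 978 CPM in MxCre ETP. The third MxCre ETP library stood apart, with 0.0777% of its counts on the nuclear RNA Malat1 and the highest summed level of the 76 genes after TMM scaling, 3009 CPM. As a plain share of counts the 76 genes took 0.260% in it, and the highest share was 0.272% in the third AntiNRR ETP library. The summary values of comparisons that use MxCre ETP are given with and without the third MxCre ETP library.

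Sequence upstream of the start site was available for 67 of the 76 genes (RefSeq, GRCm38.p6). The stretches below are shown because Mrpl16 and Mrpl52 passed the test in a comparison, Mrpl34 passed it with DESeq2 only, and Mrpl12, which is followed in every comparison, holds a match to the site of nuclear respiratory factor 1. The stretch before Mrpl14, which also passed, holds none of the motifs and overlaps an exon of Tmem63b, and is not printed. Mrps35, Mrpl54 and Mrpl38 passed too, but no upstream sequence was available for them. Each stretch ends where the gene begins in GENCODE M21 or at the RefSeq start, is written 5′ to 3′ on the plus strand, and has in capitals any match to the motifs searched. They lie at chr19:11770165-11770390, chr14:54426659-54426908, chr8:71464676-71464925 and chr11:120484387-120484612, in this order.
Mrpl16: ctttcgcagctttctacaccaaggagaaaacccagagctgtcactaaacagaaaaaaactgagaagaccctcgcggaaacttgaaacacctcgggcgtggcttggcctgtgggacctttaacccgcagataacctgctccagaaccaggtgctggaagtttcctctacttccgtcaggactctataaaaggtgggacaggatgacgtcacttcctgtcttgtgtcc
Mrpl52: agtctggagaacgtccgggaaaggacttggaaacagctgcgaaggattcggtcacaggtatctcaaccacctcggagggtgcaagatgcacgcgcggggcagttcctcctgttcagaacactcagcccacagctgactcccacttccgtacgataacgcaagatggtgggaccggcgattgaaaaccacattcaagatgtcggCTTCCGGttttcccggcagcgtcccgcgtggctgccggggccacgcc
Mrpl34: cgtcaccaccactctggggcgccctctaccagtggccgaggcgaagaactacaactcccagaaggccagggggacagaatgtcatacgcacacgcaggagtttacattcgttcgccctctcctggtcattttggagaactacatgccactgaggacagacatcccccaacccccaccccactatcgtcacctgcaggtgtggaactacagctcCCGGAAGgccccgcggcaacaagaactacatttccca
Mrpl12: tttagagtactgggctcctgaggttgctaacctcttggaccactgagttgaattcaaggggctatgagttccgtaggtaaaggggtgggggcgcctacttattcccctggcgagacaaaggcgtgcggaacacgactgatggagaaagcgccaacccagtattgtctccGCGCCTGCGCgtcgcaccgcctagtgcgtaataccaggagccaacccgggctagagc

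The motifs were searched on both strands of the 250 bases before each start, and overlaps between motifs were allowed. The core of the site for nuclear respiratory factor 1 occurred at 9 of the 67 genes (13.4%) and at 5.84% of all protein-coding genes with such a sequence. The capitals in Mrpl12 are this core, which begins 81 bases before the RefSeq start. The core bound by ETS factors and GABP, CCGGAAG, occurred at 17 of the 67 (25.4%) and at 10.2% of protein-coding genes. Mrpl34 has it 37 bases before the start and Mrpl52 has it on the other strand, 47 bases before the start, and Mrpl16 has none of the motifs searched. The E-box CACGTG, the site of Myc and Max, occurred at 5 of the 67 (7.46%), which are Mrpl2, Mrpl20, Mrpl36, Mrpl37 and Mrps18c, and at 7.61% of protein-coding genes. The core of YY1, AAGATGGC, occurred at 4 (5.97%, against 1.77%) and the CCAAT box at 25 (37.3%, against 39.5%). A match is a string of letters and not a measured binding site.

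All 76 genes were detected in all 24 libraries, with 9 counts as the lowest value of any gene in any library, and all 76 passed the low-count filter of every comparison. Together they took 0.185 to 0.272% of a library's counts. The median over the 76 genes of the mean level was 24.6 CPM, and the median over the 14370 genes that pass the same filter was 18.7 CPM. Per length, the 76 genes spread widely. Mrpl18, a protein of the central protuberance of the large subunit, was highest with 69.4 ± 19.0 CPM per kb of exon over the 24 libraries (SD). Mrpl52 followed with 54.3 ± 17.6 and Mrpl41 with 49.8 ± 12.2 CPM per kb, both large-subunit proteins without a bacterial counterpart. The ranges of these 3 genes over libraries overlapped, so their order is not fixed by these data. At the low end stood Mrpl32 with 1.97 ± 0.749, Mrpl47 with 1.58 ± 0.758 and Mrps10 with 1.34 ± 0.542 CPM per kb, and their ranges overlapped too. Mrpl32 is the large-subunit protein that is cut by the mitochondrial m-AAA protease on import. The median over the 76 genes was 10.0 CPM per kb. The length used is all annotated exon sequence of a gene, 607 to 8631 bases, which lowers the value of genes with long minor transcripts.

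**Figure D1:**
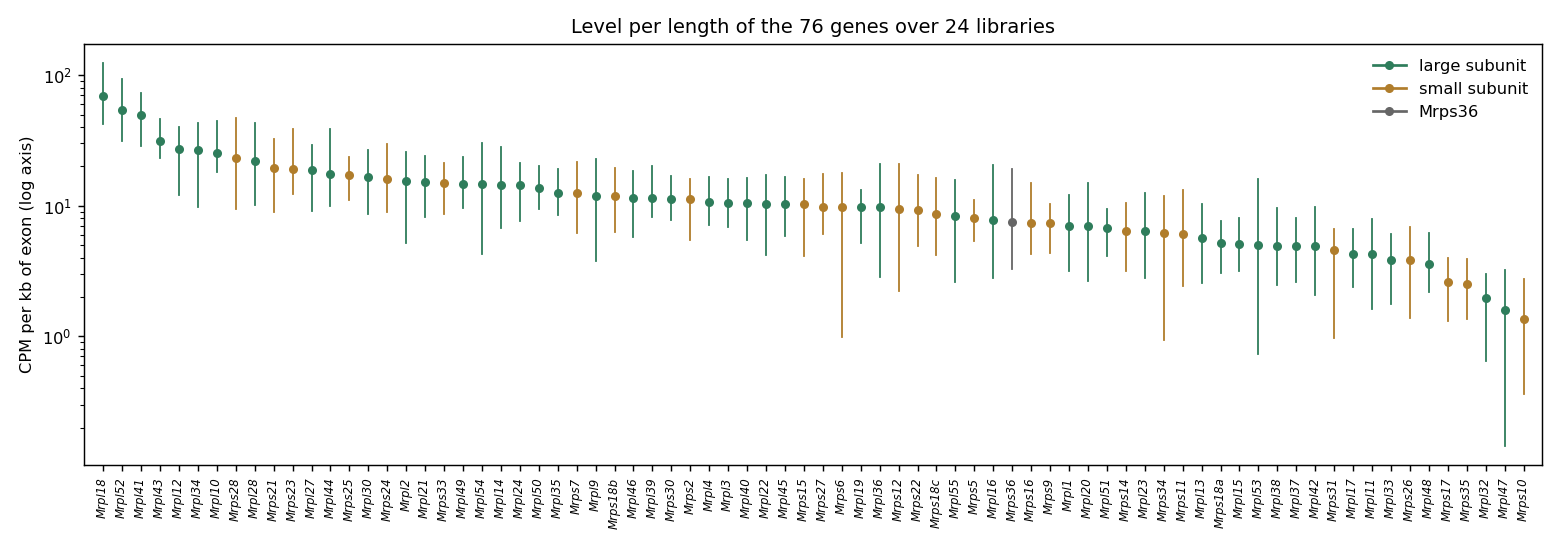
Level per length of each of the 76 genes, in CPM per kb of exon on a log axis, with the mean as a point and the lowest and highest of 24 libraries as a line, green for the large subunit, brown for the small subunit and grey for Mrps36. Means run from 69.4 (Mrpl18) to 1.34 (Mrps10) CPM per kb, and both subunits are spread along the order.

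The library strand setting is not given in the sources used here. An exon of 27 of the 76 genes overlaps an exon of another gene on the opposite strand, and 8 overlap one on the same strand. For these genes reads of the partner cannot be told apart from their own, unless, on the opposite strand, counting was by strand. Among the genes named below they are Mrpl14 (with Tmem63b), Mrpl12 (with Gm16755), Mrps30 (with B430218F22Rik), Mrpl49 (with Syvn1), Mrpl9 (with Oaz3), Mrps34 (with Nme3 and Mapk8ip3), Mrpl36 (with Ndufs6), Mrpl13 (with Mtbp), Mrpl43 (with Twnk), Mrpl10, Mrps18b, Mrps18c, Mrps25, Mrpl51, Mrpl21, Mrpl18 and Mrpl47. Mrpl23, Mrpl48 and Mrps36 each have an annotated pseudogene that could share reads.

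The summed level of the 76 genes lay between 1779 and 3009 CPM in the 24 libraries. It averaged 1969 ± 118 CPM in DeltaMxCre DN3 and 2220 ± 95.8 CPM in MxCre DN3 (SD, n = 3 each). The single DeltaMxCre DN3 libraries held 2105, 1893 and 1910 CPM, and the MxCre DN3 libraries 2249, 2113 and 2299 CPM. All 3 libraries from deleted DN3 cells were thus below the lowest control, by a margin smaller than either SD. As plain shares of counts these groups overlapped, with 0.219, 0.196 and 0.194% in DeltaMxCre DN3, against 0.225, 0.211 and 0.224% in MxCre DN3. In ETP the sum averaged 2154 ± 135 CPM in DeltaMxCre and 2380 ± 553 CPM in MxCre cells, where the control libraries alone ran over 1969, 2162 and 3009 CPM, and the groups overlapped. Under the antibody, DN3 sums averaged 1871 ± 83.0 CPM in AntiNRR and 2009 ± 67.2 CPM in IgG cells, and the ranges of 1779 to 1940 CPM and 1967 to 2086 CPM did not overlap, nor did the plain shares of 0.185 to 0.204% and 0.212 to 0.222%. ETP sums averaged 2294 ± 266 CPM in AntiNRR and 2363 ± 163 CPM in IgG cells and overlapped. Between stages, the sum was 2009 ± 67.2 CPM in IgG DN3 and 2363 ± 163 CPM in IgG ETP without overlap, and the plain shares were 0.212 to 0.222% and 0.229 to 0.238%. The sums are CPM after TMM scaling. In bulk samples, fewer cells of a type and less RNA per cell cannot be told apart. Large-subunit genes summed to 1.91 to 2.57 times the small-subunit genes in the 24 libraries.

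**Figure D2:**
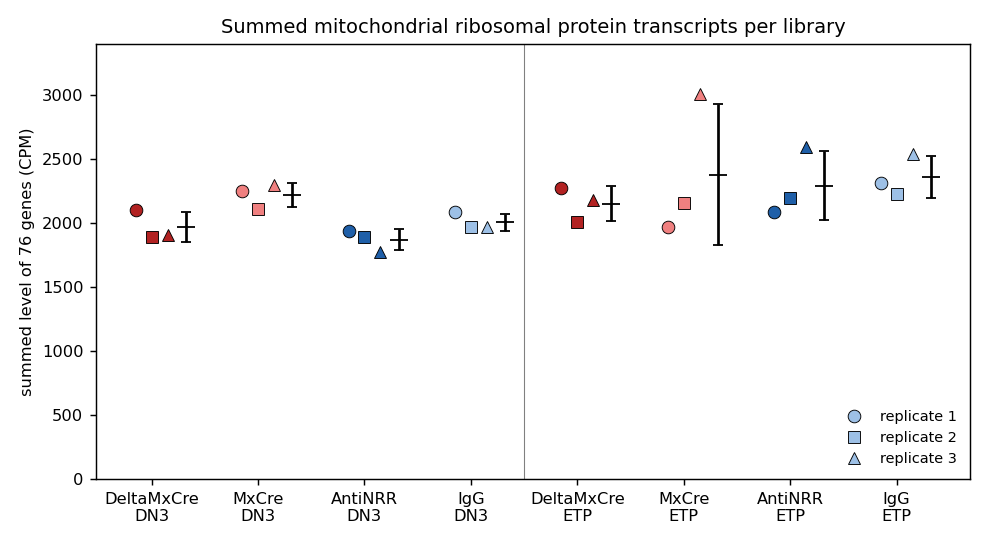
Summed level of the 76 genes in each library (CPM, axis from 0), by group, DN3 on the left and ETP on the right, with replicate shown by marker shape and the mean ± SD of 3 libraries as a bar. The third MxCre ETP library is highest at 3009 CPM, and the third AntiNRR DN3 library is lowest at 1779 CPM. The AntiNRR DN3 libraries, at 1779 to 1940 CPM, overlap the DeltaMxCre DN3 libraries, at 1893 to 2105 CPM.

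For Zmiz1 deletion by pI-pC in DN3 cells, 0 of the 76 genes passed edgeR's quasi-likelihood test at an adjusted p of 0.05, beside 1.44% of all 12675 genes tested. At an unadjusted p under 0.05, 8 of the 76 were lower and 0 higher, beside 7.83% and 8.28% of all genes. In DESeq2, 1 gene passed the adjusted threshold (4.16% of all genes did), Mrpl34, the counterpart of a small bacterial large-subunit protein. Its level was 11.2, 10.9 and 10.2 CPM in DeltaMxCre DN3, against 23.7, 19.7 and 18.5 CPM in MxCre DN3. The 3 deleted libraries all lay well below the 3 controls. The log2 fold change was -0.94 with a standard error of 0.25, with an adjusted p of 0.0825 in edgeR and 0.0169 in DESeq2. Mrps30, a large-subunit protein despite its name, had 54.5, 58.0 and 61.5 CPM in DeltaMxCre DN3, against 78.6, 72.5 and 82.4 CPM in MxCre DN3, and the groups did not overlap. Mrpl23, whose bacterial counterpart lies at the exit of the peptide tunnel, had 15.8, 22.7 and 22.5 CPM in DeltaMxCre DN3, against 40.9, 26.6 and 29.8 CPM in MxCre DN3, again without overlap. Their log2 fold changes were -0.42 (SE 0.15) and -0.67 (SE 0.24), and neither passed in edgeR (adjusted p = 0.168 and 0.174).

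Most of the 76 genes had a small negative value in this comparison. The log2 fold change was below 0 for 56 of them, beside 51.6% of all genes, and the median was -0.18, beside -0.01 over all genes tested. The median was -0.18 over the large-subunit genes and -0.18 over the small-subunit genes. In 14 genes every DeltaMxCre library was below every MxCre library, beside 10.5% of all genes, and in 1, Mrps36, every one was above (11.1% of all genes). The share of counts on Malat1 was 1.18 ± 0.194% for DeltaMxCre DN3, against 0.573 ± 0.216% for MxCre DN3, and that on Rn45s, the precursor of cytosolic ribosomal RNA, was 4.88 ± 0.181%, against 7.75 ± 1.03%. The double-positive thymocyte markers summed to 1210 to 1696 CPM in DeltaMxCre DN3 and 882 to 1109 CPM in MxCre DN3, with 2 of 6 higher in DESeq2. The stromal markers summed to 349 to 429 CPM and 208 to 270 CPM, with Col1a2, Krt5 and Krt8 at 0 and 1 of the 3 tested higher in DESeq2. None of these passed in edgeR. The ETP markers summed to 103 to 134 CPM in DeltaMxCre DN3 and 96.3 to 135 CPM in MxCre DN3, and 2 of them fell in edgeR. The part of all these in the values of the 76 genes was not tested.

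**Figure D3:**
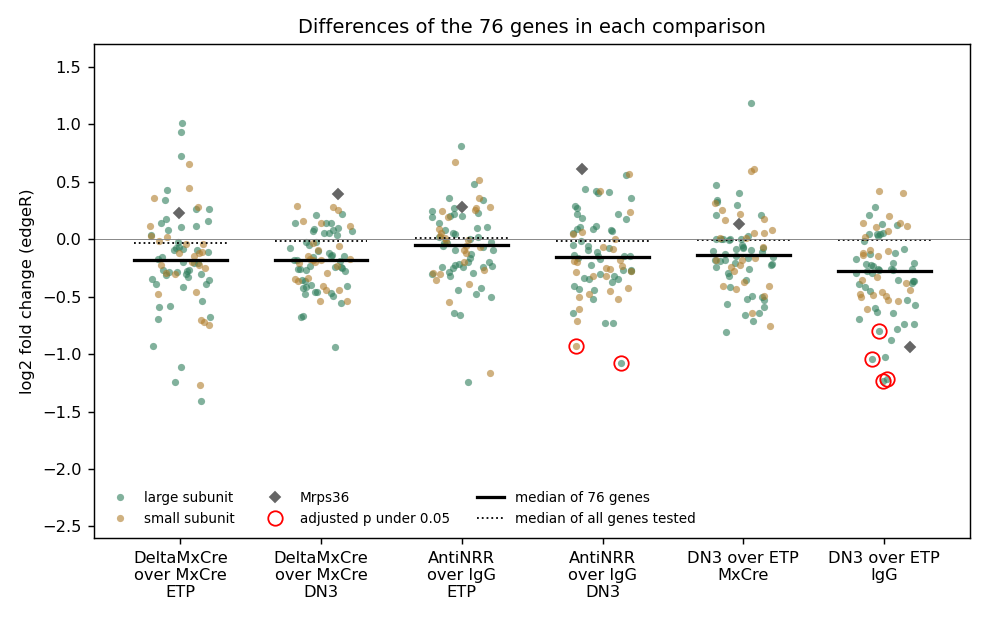
Log2 fold change from edgeR of each of the 76 genes in 6 comparisons, large-subunit genes in green, small-subunit genes in brown, Mrps36 as a diamond, genes with an adjusted p under 0.05 ringed in red, the median of the 76 as a solid line and that of all genes tested as a dotted line. Medians of the 76 run from -0.05 (AntiNRR over IgG in ETP) to -0.27 (DN3 over ETP in IgG), and the ringed genes are 2 in AntiNRR over IgG in DN3 and 4 in DN3 over ETP in IgG.

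For Zmiz1 deletion in ETP, 0 of the 76 genes passed in edgeR, beside 0.0416% of the 12010 genes tested, and 0 passed in DESeq2 (0.719% of all genes). At an unadjusted p under 0.05, 4 were lower (2.85% of all genes) and 0 higher (2.71%). Mrpl49, a mitochondria-specific large-subunit protein, had the lowest p. It stood at 19.8, 24.7 and 18.3 CPM in DeltaMxCre ETP, against 35.3, 40.3 and 44.5 CPM in MxCre ETP, without overlap, a log2 fold change of -0.93 (SE 0.34; edgeR adjusted p = 0.754). Mrpl9 had 27.5, 27.1 and 10.2 CPM in DeltaMxCre ETP, against 45.7, 33.8 and 61.6 CPM in MxCre ETP, a log2 fold change of -1.12 (SE 0.42; edgeR adjusted p = 0.778). Mrpl16, whose bacterial counterpart helps to place transfer RNA in the large subunit, had 15.5, 16.2 and 16.3 CPM in DeltaMxCre ETP, against 16.7, 32.2 and 65.5 CPM in MxCre ETP. The gap for Mrpl16 rests on MxCre ETP 2 and MxCre ETP 3, since MxCre ETP 1 lay at the level of the deleted ones. Over the 76 genes, 54 were below 0 (52.5% of all genes), and the median log2 fold change was -0.18, beside -0.03 over all genes. Without the third MxCre ETP library this median was 0.12, so its sign rests on that library. In 8 genes every DeltaMxCre ETP library was below every MxCre ETP library, beside 6.46% of all genes, and in 3 every one was above (6.09%). All 8 encode large-subunit proteins. Without the third MxCre ETP library, 0 of the 76 passed in edgeR, 1 was lower (3.91% of all genes) and 1 higher (4.29%) at an unadjusted p under 0.05, and 33 were below 0 (50.6%). In 8 genes every DeltaMxCre library was then below both remaining controls (12.6% of all genes) and in 7 every one was above (12.7%). The log2 fold change was then -0.86 for Mrpl49, -0.89 for Mrpl9 and -0.62 for Mrpl16.

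Markers of other cells also differed in this comparison. The killer and innate lymphoid markers summed to 93.8 to 130 CPM in DeltaMxCre ETP and 180 to 358 CPM in MxCre ETP, and 1 of the 4 tested was lower in DESeq2. The myeloid markers summed to 40.6 to 77.5 CPM in DeltaMxCre ETP and 77.3 to 205 CPM in MxCre ETP, with Cd14 at 0 and 2 of the 5 tested lower in DESeq2. The stromal markers summed to 326 to 411 CPM in DeltaMxCre ETP and 206 to 234 CPM in MxCre ETP, with Krt5 and Krt8 at 0 and 1 of the 4 tested higher in edgeR. The B-cell markers summed to 20.9 to 27.0 CPM in DeltaMxCre ETP and 8.97 to 37.0 CPM in MxCre ETP, with 0 called. The part of these and of the stage markers in the values of the 76 genes was not tested.

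For the Notch1-blocking antibody in DN3 cells, 2 genes fell and 0 rose in edgeR, beside 2.96% of the 12658 genes tested that fell and 2.65% that rose (5.61% called in all). They were Mrpl16 and Mrps35, a mitochondria-specific small-subunit protein. In GENCODE M21 (GRCm38) Mrpl16 lies at chr19:11770391-11774960 and Mrps35 at chr6:147042764-147073991, both on the plus strand. Mrpl16 had 14.1, 8.86 and 11.2 CPM in AntiNRR DN3, against 28.3, 20.1 and 23.4 CPM in IgG DN3. Mrps35 had 16.8, 14.0 and 15.9 CPM in AntiNRR DN3, against 30.4, 24.1 and 33.7 CPM in IgG DN3. For both genes the highest AntiNRR DN3 library was below the lowest IgG DN3 library. The log2 fold change of Mrpl16 was -1.08 (SE 0.29; edgeR adjusted p = 0.0282), and that of Mrps35 was -0.93 (SE 0.25; edgeR adjusted p = 0.0300). DESeq2 called the same 2 genes, with adjusted p = 0.00824 and 0.00790, beside 7.38% of all genes. The edgeR call for Mrpl16 was lost without IgG DN3 1, 2 or 3 (adjusted p = 0.168, 0.0606 and 0.103) and without AntiNRR DN3 2 or 3 (0.104 and 0.0551). That for Mrps35 was lost without IgG DN3 1 or 3 (0.114 and 0.181) and without AntiNRR DN3 2 or 3 (0.0942 and 0.0506). The log2 fold change stayed at or below -0.82 for both genes whichever library was left out.

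Mrpl12, the stalk protein that also binds the mitochondrial RNA polymerase, had 18.6, 18.5 and 37.8 CPM in AntiNRR DN3, against 35.8, 39.0 and 48.1 CPM in IgG DN3. The third AntiNRR library lay within the IgG range. Its log2 fold change was -0.73 (SE 0.26; edgeR adjusted p = 0.111), and without AntiNRR DN3 3 it was -1.16 (edgeR adjusted p = 0.00556). Over the 76 genes the median log2 fold change was -0.15, beside -0.01 over all genes, and 50 were below 0 (51.3% of all genes). At an unadjusted p under 0.05, 5 were lower (8.66% of all genes) and 0 higher (8.29%). The median was -0.26 over the 26 small-subunit genes and -0.11 over the 49 large-subunit genes, and it was 0.06 over the 19 mitochondria-specific large-subunit genes. In 11 genes every AntiNRR library was below every IgG library, beside 11% of all genes, and in 3 every one was above (11.4%).

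Stage markers, markers of other cells and library composition also differed between the antibody groups in DN3. The 8 DN3 markers summed to 6084 to 7070 CPM in AntiNRR DN3 and 11602 to 11793 CPM in IgG DN3, and 6 of the 8 fell in edgeR. These 8 include the Notch target Dtx1, and Il2ra, which averaged 637 ± 162 CPM in AntiNRR DN3 and 3413 ± 304 CPM in IgG DN3. Their sum therefore cannot tell a change of stage from the Notch1 block itself. The ETP markers summed to 188 to 229 CPM in AntiNRR DN3 and 127 to 151 CPM in IgG DN3, and 1 of the 3 tested rose in edgeR. The 6 killer and innate lymphoid markers summed to 224 to 253 CPM in AntiNRR DN3 and 122 to 146 CPM in IgG DN3, with Ncr1 and Klrb1c at 0 and 1 of the 3 tested higher in edgeR. Both gamma-delta markers in the table summed to 88.2 to 108 CPM in AntiNRR DN3 and 45.4 to 65.2 CPM in IgG DN3, and 1 of them rose in edgeR. The stromal markers summed to 273 to 332 CPM in AntiNRR DN3 and 300.3 to 309.9 CPM in IgG DN3. Of these, Col1a2, Krt5 and Krt8 were at 0, and 1 of the 3 tested rose in edgeR. Rn45s took 5.70 ± 1.03% of counts in AntiNRR DN3 and 3.13 ± 0.535% in IgG DN3. Their part in the lower level of Mrpl16 and Mrps35 was not tested.

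In ETP the antibody gave no call. In edgeR 0 of the 76 genes passed, beside 0% of the 12568 genes tested, 0 were lower and 0 higher at an unadjusted p under 0.05 (2.86% and 2.61% of all genes), and DESeq2 called 0 (0.223%). In 3 genes every AntiNRR library was below every IgG library (5.94% of all genes) and in 2 every one was above (5.86%), and 43 of the 76 log2 fold changes were below 0 (48.8%). Mrps34, a small-subunit protein, had 9.63, 1.93 and 12.8 CPM in AntiNRR ETP, against 15.9, 21.8 and 17.0 CPM in IgG ETP. All AntiNRR ETP libraries were below the controls, and the log2 fold change of -1.16 had a standard error of 0.55 (edgeR adjusted p = 0.907). Mrpl36 had 12.2, 19.0 and 24.1 CPM in AntiNRR ETP, against 7.90, 10.7 and 12.9 CPM in IgG ETP, with overlap and a log2 fold change of 0.81 (SE 0.41; edgeR adjusted p = 0.937). Mrpl12 had 37.1, 25.1 and 39.9 CPM in AntiNRR ETP, against 41.1, 51.3 and 49.5 CPM in IgG ETP, without overlap, and a log2 fold change of -0.47 (SE 0.26; edgeR adjusted p = 0.950). The median over the 76 genes was -0.05, beside 0.01 over all genes. Without AntiNRR ETP 1 it was 0.01, and without AntiNRR ETP 3 it was -0.19. The 8 DN3 markers, Dtx1 among them, summed to 848 to 2535 CPM in AntiNRR ETP and 3684 to 5362 CPM in IgG ETP. Of these, 0 were called in edgeR and 1 was lower in DESeq2. The ETP markers overlapped, at 444 to 1247 CPM in AntiNRR ETP and 352 to 987 CPM in IgG ETP. The part of the markers in the values of the 76 genes was not tested.

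The stage comparison in IgG mice gave the most calls. In edgeR 4 of the 76 genes were lower in DN3 than in ETP and 0 were higher, beside 7.6% and 7.12% of the 12720 genes tested (14.7% called in all). All 4 encode large-subunit proteins. The IgG DN3 libraries are also the controls of the antibody comparison. In GENCODE M21 (GRCm38) the genes lie at chr17:45686322-45698495 (Mrpl14, plus strand), chr10:81264713-81266934 (Mrpl54, minus), chr11:116131817-116138868 (Mrpl38, minus) and chr14:54426909-54429756 (Mrpl52, plus). Mrpl14, whose bacterial counterpart sits at the interface between the subunits, had 7.52, 9.83 and 8.57 CPM in IgG DN3, against 15.5, 27.0 and 18.7 CPM in IgG ETP. Mrpl54, a mitochondria-specific protein, had 10.0, 8.79 and 12.0 CPM in IgG DN3, against 15.0, 25.1 and 23.4 CPM in IgG ETP. Neither gene overlapped between stages. Mrpl38, also mitochondria-specific and part of the central protuberance, had 7.57, 10.9 and 6.31 CPM in IgG DN3, against 21.8, 24.4 and 11.4 CPM in IgG ETP. Mrpl52 had 57.1, 36.6 and 40.5 CPM in IgG DN3, against 85.3, 93.5 and 54.6 CPM in IgG ETP. Mrpl38 did not overlap, although IgG ETP 3 was close to the DN3 range, and Mrpl52 overlapped by IgG DN3 1 and IgG ETP 3. The log2 fold changes were -1.24 for Mrpl14 (SE 0.34), -1.04 for Mrpl54 (SE 0.32), -1.21 for Mrpl38 (SE 0.38) and -0.80 for Mrpl52 (SE 0.22). The edgeR adjusted p-values were 0.0204 for Mrpl14, 0.0402 for Mrpl54, 0.0404 for Mrpl38 and 0.0221 for Mrpl52. DESeq2 called these 4 and Mrpl21 (adjusted p = 0.0348; 0.0521 in edgeR), beside 17.7% of all genes.

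**Figure D4:**
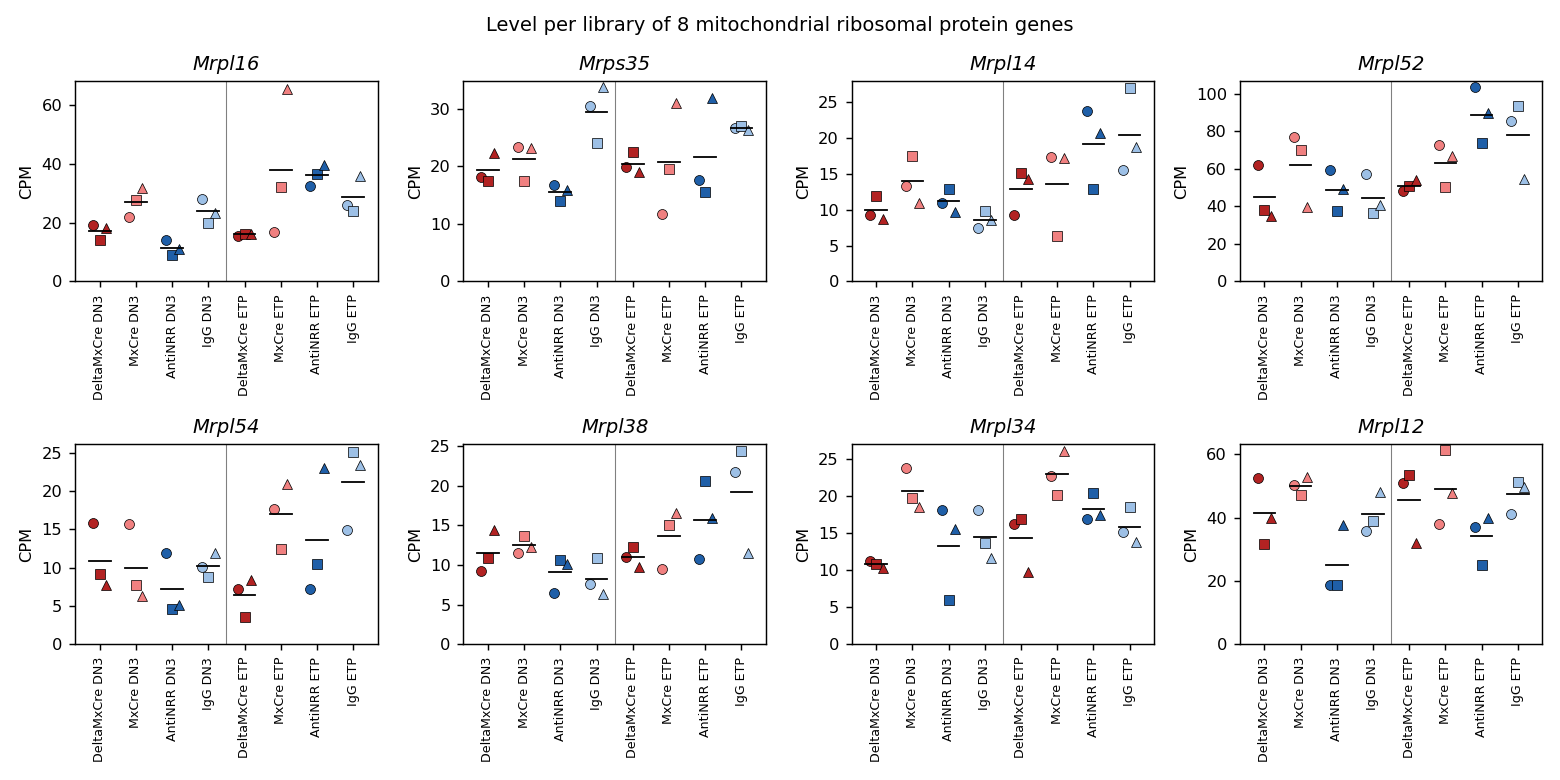
Level in CPM of 8 of the genes in each of the 24 libraries, DN3 groups left and ETP groups right of the grey line, with replicate 1, 2 and 3 as circle, square and triangle and the group mean as a bar. Mrpl16 and Mrps35 are at 8.86 to 16.8 CPM in all AntiNRR DN3 libraries, below all IgG DN3 libraries, and Mrpl14, Mrpl54 and Mrpl38 are lower in all IgG DN3 than in all IgG ETP libraries.

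These 4 calls depended on single libraries. Mrpl14 was not called without IgG DN3 1, 2 or 3 (edgeR adjusted p = 0.0840, 0.0577 and 0.0807) or without IgG ETP 2 (0.0858). Mrpl52 was not called without IgG ETP 1 or 2 (0.0761 and 0.0809) or without IgG DN3 2 or 3 (0.124 and 0.115). Mrpl38 was called only without IgG ETP 3 (0.00917; 0.0569 to 0.171 without any other library), and Mrpl54 only without IgG ETP 1 (0.0233; 0.0856 to 0.161 without any other). In none of these fits did a log2 fold change of the 4 genes rise above -0.64. With the spread estimated over all 8 groups 0 of the 4 passed, and with no scaling beyond library size only Mrpl14 did.

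The wider shift was in the same direction in IgG mice. The median log2 fold change, DN3 over ETP, was -0.27 over the 76 genes and -0.01 over all genes, and 58 of the 76 were below 0, beside 50.5% of all genes. It was -0.28 over the large-subunit and -0.14 over the small-subunit genes, and it was below 0 for 18 of the 19 mitochondria-specific large-subunit genes. In 23 genes every IgG DN3 library was below every IgG ETP library, beside 16.6% of all genes, and in 1 every one was above (16.8%). At an unadjusted p under 0.05, 12 were lower (14.3% of all genes) and 0 higher (13.2%). The share of 12 in 76 is close to that over all genes. Rn45s took 3.13 ± 0.535% of counts in IgG DN3 and 11.0 ± 2.49% in IgG ETP, and Malat1 1.28 ± 0.183% and 0.649 ± 0.190%. The myeloid markers summed to 12.2 to 24.9 CPM in IgG DN3 and 74.2 to 329 CPM in IgG ETP, with 1 of the 4 tested lower in edgeR. The stromal markers summed to 300.3 to 309.9 CPM in IgG DN3 and 191 to 247 CPM in IgG ETP. Of these, Col1a2, Krt5 and Krt8 were at 0, and of the 3 tested 2 were higher and 1 lower in edgeR. Of the killer and innate lymphoid markers, which summed to 122 to 146 CPM in IgG DN3 and 113 to 245 CPM in IgG ETP, 3 of the 4 tested were lower, as were both gamma-delta markers. The double-positive thymocyte markers summed to 1555 to 1922 CPM in IgG DN3 and 548 to 911 CPM in IgG ETP, with 1 of 6 higher and 1 lower. The part of all these in the values of the 76 genes was not tested.

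In MxCre mice 0 of the 76 genes passed the stage test in edgeR, beside 2.99% of the 12399 genes tested, and DESeq2 called 0 (8.25% of all genes). At an unadjusted p under 0.05, 1 was lower (9.15% of all genes) and 0 higher (7.55%). It was Mrpl51, a mitochondria-specific large-subunit protein, with 24.3, 21.9 and 22.4 CPM in MxCre DN3, against 36.4, 31.6 and 38.3 CPM in MxCre ETP. Its groups did not overlap, and its log2 fold change was -0.66 (SE 0.26; edgeR adjusted p = 0.238). Mrpl45, which anchors the ribosome to the inner membrane, had 30.6, 20.9 and 20.5 CPM in MxCre DN3, against 37.0, 35.2 and 33.7 CPM in MxCre ETP (log2 fold change -0.59, SE 0.28; edgeR adjusted p = 0.349). Mrpl13 had 42.2, 40.9 and 50.8 CPM in MxCre DN3, against 60.2, 46.8 and 82.1 CPM in MxCre ETP, with overlap (log2 fold change -0.53, SE 0.25; edgeR adjusted p = 0.348). In the same comparison 3 genes were lower and 3 higher in every DN3 library than in every ETP library, beside 11% and 13.4% of all genes. A log2 fold change below 0 was found for 50 of the 76 (50.8% of all genes). The median over the 76 genes was -0.14, beside -0.01 over all genes. It was 0.08 without the third MxCre ETP library, and 0.02 with no scaling beyond library size, where the median of all genes was 0.14. Without that library 0 of the 76 passed in edgeR, 0 were lower (9.48% of all genes) and 2 higher (9.41%) at an unadjusted p under 0.05, and 29 were below 0 (48.1%). In 3 genes every DN3 library was then below both remaining ETP libraries (16.6% of all genes) and in 12 every one was above (21.6%). The log2 fold change was then -0.60 for Mrpl51, -0.62 for Mrpl45 and -0.29 for Mrpl13. With all libraries, Rn45s took 7.75 ± 1.03% of counts in MxCre DN3 and 15.3 ± 0.884% in MxCre ETP. Myeloid markers summed to 16.1 to 18.2 CPM in MxCre DN3 and 77.3 to 205 CPM in MxCre ETP, with 1 of the 5 tested lower in edgeR. Among the killer and innate lymphoid markers, 3 of the 4 tested were lower in edgeR. The part of these in the values of the 76 genes was not tested. The 4 genes called in IgG mice had log2 fold changes in MxCre mice of 0.00337 for Mrpl14, -0.16 for Mrpl38, -0.05 for Mrpl52 and -0.81 for Mrpl54, and none passed there; whether the stage difference itself differs between IgG and MxCre mice was not tested.

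**Figure D5:**
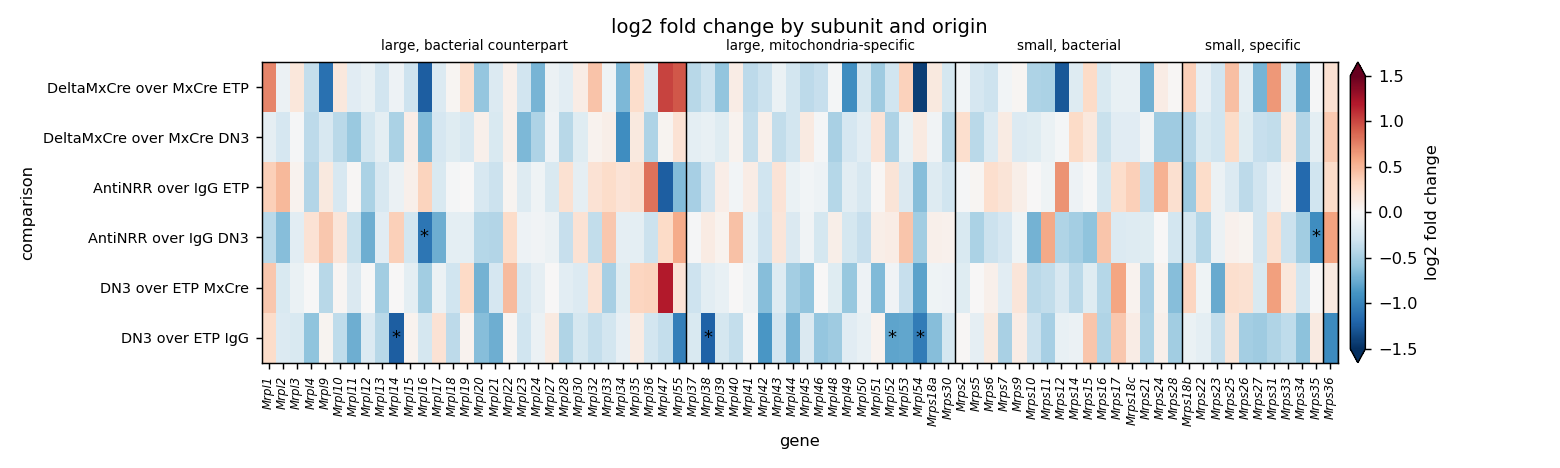
Log2 fold change (colour, blue lower and red higher, scale ending at 1.5 either way) of each of the 76 genes in 6 comparisons, grouped by subunit and by whether the protein has a bacterial counterpart, with Mrps36 as the last column; an asterisk marks an adjusted p under 0.05. The 6 asterisks are Mrpl16 and Mrps35 for AntiNRR over IgG in DN3 and Mrpl14, Mrpl38, Mrpl52 and Mrpl54 for DN3 over ETP in IgG.

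Differences between effects were tested within edgeR fits of 4 groups, and 0 of the 76 genes passed in any of the 4 contrasts. For the antibody effect in DN3 minus that in ETP, 0% of 13603 genes passed; 2 of the 76 had an unadjusted p under 0.05, both lower (2.62% of all genes were lower and 2.84% higher), and DESeq2 called 0 (0.0369%). Mrpl16 had the lowest p, with an effect lower by 1.40 on the log2 scale in DN3 (SE 0.39; edgeR adjusted p = 0.901). Its AntiNRR ETP libraries held 32.6, 36.7 and 39.6 CPM, against 25.9, 24.1 and 36.0 CPM in IgG ETP, with overlap. The difference was -1.11 for Mrpl2 (SE 0.48) and -0.69 for Mrps22 (SE 0.36), with an edgeR adjusted p of 0.901 for each.

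For the deletion effect in DN3 minus that in ETP, 0.00746% of 13406 genes passed, 1 of the 76 had an unadjusted p under 0.05 (higher; 2.89% of all genes were higher and 2.63% lower) and DESeq2 called 0 (0.376%). It was Mrpl54, with a difference of 1.55 (SE 0.71; edgeR adjusted p = 0.881). Mrpl54 had 7.16, 3.53 and 8.43 CPM in DeltaMxCre ETP, against 17.7, 12.5 and 20.9 CPM in MxCre ETP, and 15.8, 9.22 and 7.78 CPM in DeltaMxCre DN3, against 15.7, 7.75 and 6.33 CPM in MxCre DN3. The next by p were Mrpl1 with -0.86 (SE 0.43; edgeR adjusted p = 0.928) and Mrpl51 with 0.75 (SE 0.40; edgeR adjusted p = 0.943). Without the third MxCre ETP library 0 passed, 3 were lower (5.42% of all genes) and 0 higher (4.55%) at an unadjusted p under 0.05, and the difference of Mrpl54 was 1.38.

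The effect of deletion minus that of the antibody has separate controls. In DN3, 1.23% of 13557 genes passed; of the 76, 3 were lower (6.05% of all genes) and 2 higher (6.46%) at an unadjusted p under 0.05, and DESeq2 called 0 (2.54%). Mrps30 had a difference of -0.51 (SE 0.22), Mrpl10 one of -0.60 (SE 0.26) and Mrpl43 one of -0.56 (SE 0.25), with edgeR adjusted p-values from 0.311 to 0.340. In ETP, 0.082% of 13408 genes passed, 3 of the 76 were lower (3.29%) and 1 higher (3.11%) at an unadjusted p under 0.05, and DESeq2 called 0 (0.602%). Mrpl16 had a difference of -1.57 (SE 0.54), Mrpl9 one of -1.24 (SE 0.52) and Mrps25 one of 0.67 (SE 0.29), with edgeR adjusted p-values from 0.577 to 0.742. Without the third MxCre ETP library 0 passed, 0 were lower (4.1% of all genes) and 3 higher (4.39%) at an unadjusted p under 0.05, and these differences were -0.94 for Mrpl16, -1.01 for Mrpl9 and 0.53 for Mrps25. Across the settings the log2 fold change of Mrpl16 was -1.24 for deletion in ETP, -0.67 for deletion in DN3 and -1.08 for the antibody in DN3, but 0.34 for the antibody in ETP, and of these 4 only the antibody in DN3 passed.

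Some proteins were followed in every comparison for their roles. Mrpl12 was described above for the antibody; for deletion its log2 fold change was -0.27 in DN3 (SE 0.20) and -0.11 in ETP (SE 0.31), and for the stage -0.21 in IgG (SE 0.20) and -0.00202 in MxCre mice (SE 0.24), with no call. Mrps12, the counterpart of the bacterial S12 protein of the decoding centre, was a low gene. It had 7.02, 6.02 and 2.30 CPM in DeltaMxCre ETP, against 6.76, 13.9 and 16.4 CPM in MxCre ETP, and 6.52, 6.07 and 6.76 CPM in AntiNRR DN3, against 10.2, 7.57 and 8.45 CPM in IgG DN3. The first pair overlapped and the second did not, and neither passed (log2 fold change -1.27, SE 0.74, edgeR adjusted p = 0.964, and -0.45, SE 0.42, edgeR adjusted p = 0.677). For the antibody in ETP its log2 fold change was 0.68 (SE 0.48), and in the other comparisons it lay between -0.25 and -0.03.

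The 3 relatives of bacterial S18 occupy different places: Mrps18c is the small-subunit protein at the S18 site, Mrps18b lies elsewhere in the small subunit, and Mrps18a in the large subunit. None of the 3 passed in any comparison. Mrps18b had 13.3, 18.5 and 20.5 CPM in AntiNRR ETP, against 22.4, 26.1 and 27.8 CPM in IgG ETP, without overlap (log2 fold change -0.55, SE 0.33; edgeR adjusted p = 0.968). It had 25.6, 23.7 and 19.9 CPM in DeltaMxCre DN3, against 31.2, 25.4 and 37.1 CPM in MxCre DN3, with overlap by a small margin (log2 fold change -0.44, SE 0.22; edgeR adjusted p = 0.343). In the other comparisons Mrps18b ranged from -0.26 to 0.36. Mrps18a ranged from -0.64 (DN3 over ETP in IgG, SE 0.31; edgeR adjusted p = 0.185) to 0.14, and Mrps18c from -0.19 to 0.36, where the standard errors of Mrps18c were 0.32 to 0.74.

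Genes that act with the mitochondrial ribosome were counted from lists of other mitoribosomal proteins, translation factors and mitochondrial tRNA synthetases, ribosome assembly and ribosomal RNA modification, mitochondrial transcription, and regulators. The list of other mitoribosomal proteins also held Oxa1l, a membrane insertase and not a ribosomal protein. For the antibody in DN3 the only calls were 3 of the 9 regulators, all lower: Myc, Pprc1 and Ppargc1b. They were 3 of the 76 companion genes tested from all these lists, beside 5.61% of all genes. With an unadjusted p under 0.05, 9 of the 76 were lower (8.66% of all genes) and 0 higher (8.29%). Myc, a transcription factor for growth, averaged 66.2 ± 2.97 CPM in AntiNRR DN3 and 130 ± 35.0 CPM in IgG DN3 (log2 fold change -0.99, SE 0.16; edgeR adjusted p = 0.000253). Pprc1, a PGC-1-related coactivator, averaged 82.6 ± 15.5 CPM in AntiNRR DN3 and 127 ± 2.85 CPM in IgG DN3 (log2 fold change -0.63, SE 0.14; edgeR adjusted p = 0.00588). Ppargc1b, which encodes the coactivator PGC-1 beta, had an edgeR adjusted p of 0.0480 and was named after its value was seen. Of the other lists, 0 of 8, 0 of 29, 0 of 23 and 0 of 7 members passed, with medians of -0.00, -0.19, -0.14 and -0.24, beside -0.01 over all genes. DESeq2 called the same numbers, beside 7.38% of all genes.

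Between stages in IgG mice, Mtfmt, which formylates the initiator methionyl-tRNA, was higher in DN3 (27.9 ± 6.58 CPM in DN3 and 13.7 ± 5.01 CPM in ETP; log2 fold change 1.02, SE 0.32; edgeR adjusted p = 0.0431). Gabpb1, a subunit of GABP, was lower (53.4 ± 7.20 CPM in DN3 and 78.8 ± 0.744 CPM in ETP; log2 fold change -0.56, SE 0.16; edgeR adjusted p = 0.0282). Of the 76 companion genes tested there, these 2 were the only calls in edgeR, beside 14.7% of all genes. With an unadjusted p under 0.05, 5 were lower (14.3% of all genes) and 3 higher (13.2%). No companion gene passed in edgeR in the MxCre stage comparison, in the deletion by pI-pC at either stage, or in the antibody comparison in ETP. At an unadjusted p under 0.05, of the companion genes tested 1 of 76 was lower and 6 higher between stages in MxCre mice (9.15% and 7.55% of all genes), 12 of 75 were lower and 2 higher for deletion in DN3 (7.83% and 8.28%), 4 of 76 were lower and 0 higher for deletion in ETP (2.85% and 2.71%), and 5 of 75 were lower and 0 higher for the antibody in ETP (2.86% and 2.61%). DESeq2 also called Lars2, the mitochondrial leucyl-tRNA synthetase, between stages in IgG mice, where it averaged 90.8 ± 43.8 CPM in DN3 and 910 ± 1013 CPM in ETP, and Myc for deletion in DN3, both lower. In all DESeq2 called 3 of 76 companion genes in the first comparison (17.7% of all genes) and 1 of 75 in the second (4.16%). The SD of Lars2 in IgG ETP was above its mean, so its gap rests on uneven libraries. Its whole list summed to 1029 to 2991 CPM in IgG ETP and 1011 to 1134 CPM in IgG DN3, with overlap. Myc averaged 85.3 ± 16.2 CPM in DeltaMxCre DN3 and 153 ± 66.1 CPM in MxCre DN3 (log2 fold change -0.84, SE 0.29; adjusted p = 0.211 in edgeR and 0.0209 in DESeq2).

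The tamoxifen tables hold these companion genes. In DN3 cells 43 to 44 hours after tamoxifen, 0 of 76 companion genes passed in edgeR (0.0827% of all genes), 19 were lower (8.26% of all genes) and 0 higher (7.29%) at an unadjusted p under 0.05, and DESeq2 called 5, all lower (3.99% of all genes). The 8 genes on the list of other mitoribosomal proteins, Oxa1l among them, all had a log2 fold change below 0 in DeltaTamCre over TamCre DN3. Of all genes 47.8% did. The median of the 8 was -0.14, beside 0.01 over all genes. Gadd45gip1, a large-subunit protein, averaged 60.0 ± 1.94 CPM in DeltaTamCre DN3 and 72.6 ± 2.01 CPM in TamCre DN3 (log2 fold change -0.27, SE 0.06; adjusted p = 0.121 in edgeR and 0.00496 in DESeq2). Dap3, a small-subunit protein that binds GTP, averaged 95.6 ± 3.47 CPM in DeltaTamCre DN3 and 114 ± 5.76 CPM in TamCre DN3 (log2 fold change -0.25, SE 0.07; adjusted p = 0.140 in edgeR and 0.0260 in DESeq2). The other calls of DESeq2 were Nars2, Rnmtl1 and Myc. In ETP after tamoxifen 0 companion genes passed in edgeR or DESeq2 (0% and 0.0155% of all genes), and 2 of 76 were lower (2.3% of all genes) and 1 higher (2.65%) at an unadjusted p under 0.05. There too the 8 genes on that list, Oxa1l among them, all had a log2 fold change below 0 (45.6% of all genes did). Their median was -0.23, beside 0.03 over all genes. The 2 tamoxifen stages differ in how libraries were made. By the labels, ETP libraries took 1 ng of RNA and 15 PCR cycles, and DN3 libraries 100 ng and 12 cycles. The pI-pC and antibody libraries took 10 ng and 16 cycles. Rn45s held 16.8 to 31.5% of counts in the tamoxifen ETP libraries and 0.356 to 1.15% in the tamoxifen DN3 libraries.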

How the data were processed

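Per the submitters' processing notes, reads were handled with TopHat2 2.0.9, Bowtie2 2.1.0.0, Cufflinks and Cuffdiff 2.1.1 and checked with FastQC 0.10.0, on mm10. The authors deposited estimated counts per gene (expected counts), of which 0.507 to 0.863% were not whole within 0.01 in the table used for the 76 genes; they were rounded. How multi-mapping reads and strand were counted is not given in the sources used here. Levels are CPM after TMM scaling over the 24 pI-pC and antibody libraries. Tamoxifen levels were scaled apart, over the 8 libraries of each stage. Each comparison used its own groups, of 3 libraries or, for tamoxifen, 4. It used filterByExpr (minimum count 10, minimum total 15), TMM and edgeR 4.0.16's robust quasi-likelihood F test in R 4.3.3. Benjamini-Hochberg adjustment was over all genes tested, with a threshold of 0.05. DESeq2 1.42.0, other filters, scalings and spreads, a replicate block and leaving out each library were alternatives. Total counts per library limit the precision, and no 2 libraries agreed within sampling noise. The members, gene lists and tests were chosen with earlier results of these data known. Genes named are the called ones with the lowest p, the 3 with the lowest p where none was called or for a difference between effects, the extremes per length, and Mrpl12, Mrps12 and the 3 Mrps18 genes; other names were added after their values were seen. Subunits come from the current nomenclature and gene positions from GENCODE M21 by symbol. The fits were also run on simulated data in which every gene had the same spread between libraries. That run does not cover outlying libraries such as the third MxCre ETP library, and its outcome is not used here.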

Additional observations from a re-analysis of the deposited data

Results flagged for a closer look

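Mrpl2 had a difference of -1.11 between the antibody effect in DN3 and that in ETP, since the libraries moved in opposite directions. In ETP it had 17.6, 23.6 and 26.4 CPM in AntiNRR, against 13.5, 17.3 and 17.5 CPM in IgG cells, with all AntiNRR values above all IgG values. In DN3 it had 10.6, 6.07 and 10.4 CPM in AntiNRR, against 14.4, 11.8 and 15.6 CPM in IgG cells, with all AntiNRR values below. The difference did not pass in edgeR (adjusted p = 0.901).

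Mrpl43 had a difference of -0.56 between the effect of deletion and that of the antibody in DN3. It had 37.2, 36.7 and 37.8 CPM in DeltaMxCre DN3, against 46.0, 55.8 and 42.1 CPM in MxCre DN3. It had 50.3, 43.7 and 45.2 CPM in AntiNRR DN3, against 43.1, 35.3 and 43.6 CPM in IgG DN3. All deleted libraries were below and all antibody libraries above their own controls, and the difference did not pass in edgeR (adjusted p = 0.340). Reads of Twnk, on the opposite strand, cannot be told apart from those of Mrpl43 unless counting was by strand, which is not given.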

How the results depend on the processing

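Of the summary values under all alternatives run, 213 were counted as stayed and 15 as moved. A count of calls stayed if it was equal or close to the main one, and a median if it changed by less than the spread between libraries. Sign was not part of this rule. Without the third MxCre ETP library the median was 0.12 for deletion in ETP and 0.08 for the stage in MxCre mice. Both had turned sign and still counted as stayed. Of the values of single genes, 538 kept direction and call, 35 lost the call, 3 gained it and 35 changed sign, and the cause was not tested. The count of called members was 1 with DESeq2 for deletion in DN3, 4 with the replicate block for the antibody in DN3 (Mrpl12, Mrpl16, Mrpl17 and Mrps35), and for the stage in IgG mice 1 with no scaling beyond library size, where the median was -0.16, and 0 with the spread of all 8 groups. Leaving out 1 library gave 0 to 3 calls for the antibody in DN3 and 0 to 4 for the stage in IgG mice. The sign of small values that did not pass turned in some settings. With no scaling, which was added after seeing the data, deletion in DN3 gave 0.0320 for Mrps12 and 0.00725 for Mrps18a, the stage in MxCre mice 0.15 for Mrpl12 and 0.0779 for Mrps18a, and the stage in IgG mice 0.0130 for Mrps12 and 0.00533 for Mrps18b. It moved the calls over all genes to 186 higher and 51 lower for deletion in DN3 (125 and 58 before), 272 and 420 for the antibody in DN3 (335 and 375), 158 and 199 for the stage in MxCre (111 and 260), and 1263 and 728 for the stage in IgG mice (906 and 967). For the stage in MxCre mice, Mrpl12 was 0.000362 with the filter at a mean of 10 counts, 0.0237 with the replicate block and 0.0278 with the spread of all 8 groups, and Mrps18a was 0.0117 with the block. With 1 library left out, deletion in ETP ranged from -0.13 to 0.51 for Mrps18a, -0.26 to 0.0906 for Mrpl12 and -0.66 to 0.22 for Mrps18c, and deletion in DN3 from -0.17 to 0.0884 for Mrps18a and -0.17 to 0.14 for Mrps12. The antibody ranged from -0.12 to 0.75 for Mrps18c in ETP, and in DN3 from -0.10 to 0.37 for Mrps18a and -0.60 to 0.0225 for Mrps18c. The stage in MxCre mice ranged from -0.32 to 0.32 for Mrps18a, -0.25 to 0.41 for Mrps18c, -0.14 to 0.21 for Mrpl12 and -0.52 to 0.0157 for Mrps12, and that in IgG mice from -0.0658 to 0.51 for Mrps18c and -0.39 to 0.34 for Mrps12. The replicate numbers pair no libraries by the labels: same-numbered libraries had correlated deviations of -0.12 to 0.22, no comparison had all 3 pairs above 0.1, and the block also took Mrpl54 out of the stage calls in IgG mice (edgeR adjusted p = 0.0686). Mrps12, at 2.30 to 21.7 CPM over the 24 libraries, had standard errors of 0.30 to 0.74 in the 6 comparisons.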
